A study of Homo sapiens with 3 samples.

Results

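The insulin-like growth factor axis was followed through 10 genes, which were selected by symbol only: the ligand IGF2, the receptors IGF1R, IGF2R and INSR, the adaptors IRS1 and IRS2, and the secreted binding proteins IGFBP1, IGFBP2, IGFBP3 and IGFBP4. All 10 were found among the 25270 gene symbols of the RNA-seq data. The data come from HepG2, a human hepatocellular carcinoma cell line, in 3 conditions with 1 library each (n = 1 per condition). HepG2/wild is the untreated parental line. HepG2/metR is described by the authors as HepG2 cells that outlived more than 5 months in metformin, an inhibitor of complex I of the respiratory chain. It serves as a hyper-glycolytic, lactate-producing model. Whether the cells were still in metformin at harvest is not given in the sources used here. HepG2/metR+oxamate is the same resistant line after 24 h in 40 mM oxamate, an inhibitor of lactate dehydrogenase. All cells grew in serum-containing medium, which brings growth factors of its own to every condition. With 1 culture per condition there is no replicate error, so no p-value is given and differences are described by their size, and the condition, its library and the selection history of the resistant line cannot be told apart.

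In this axis IGF2, IGF1 and insulin bind IGF1R or INSR, which are related receptor tyrosine kinases, and the activated receptors phosphorylate IRS1 and IRS2, the docking proteins that pass the signal to PI3-kinase and AKT. IGF2R has no kinase and takes IGF2 to the lysosome for breakdown. The IGFBP proteins hold the growth factors outside the cell and either limit or prolong their action. The liver is the main source of circulating IGF1 and of several binding proteins in adults, and IGF2, an imprinted gene of fetal liver, is re-expressed in many liver cancers.

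Levels are given as FPKM (fragments per kilobase of transcript, scaled to library size), a unit that is already divided by transcript length, so levels of different genes in 1 library can be set side by side. Differences between libraries are given on the log2(FPKM + 1) scale, on which a well expressed gene that doubles differs by 1 and a low gene by less. A difference counted as past the threshold at 2-fold for HepG2/metR against HepG2/wild and at 1.5-fold (0.58 on the log2 scale) for oxamate. It was read against all 12210 genes with a mean of at least 1 FPKM over the 3 libraries, a filter that all 10 genes of the axis passed. IRS2 and IGFBP3 were under 1 FPKM in HepG2/wild and passed through the other 2 libraries.

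The 3 libraries had summed FPKM of 473773 to 562382 and 11356 to 11649 genes at 1 FPKM or more. The number of reads is unknown. They differed in liver genes. The 12 hepatocyte markers examined, among them ALB, TTR and HNF4A, summed to 28680 FPKM in HepG2/wild, with none under 1. They summed to 14.3 FPKM in HepG2/metR and 11.4 with oxamate, with 10 of 12 under 1 in each and 4 and 2 listed at 0, respectively. TTR was among those at 0 in both. Of 6 fibroblast markers 4 were under 1 FPKM in each library (summed 5.26, 7.77 and 15.2 FPKM), and all 3 endothelial markers were under 1. Of the blood markers, PTPRC did not exceed 0.043 FPKM while CD68, a lysosomal protein, was at 31.0 to 43.0. The hepatocyte markers thus moved together with every HepG2/metR difference given here, and their part in these differences was not tested. Whether the resistant line has the same origin as HepG2/wild was not tested either.

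Several genes of the axis differed between HepG2/metR and HepG2/wild, in a comparison in which many genes outside it also differed. IGF2 was all but absent, IGF2R and INSR were lower, and IRS2 and IGFBP3, both nearly silent in HepG2/wild, were among the better expressed genes of the axis. Of the 10 genes, 3 were higher (IRS2, IGFBP2 and IGFBP3) against 16.6% of all genes kept, 3 were lower (IGF2, IGF2R and INSR) against 17.6% of all genes kept, and 4 were not past 2-fold. The median difference of the 10 genes was -0.71 on the log2 scale, and that of all genes kept was 0.02. The 24 h in oxamate left most of these levels near those of HepG2/metR: 0 of 10 genes were past 1.5-fold higher (4.30% of all genes kept), 1 was past 1.5-fold lower (IGFBP1; 3.82% of all genes kept), and 9 were not past it. These counts depend on the added 1 FPKM. Plain ratios of FPKM were 1.56 for IGF1R, 1.53 for IRS1 and 1.52 for IGF2, all upward, and 1.71 for IGFBP1, downward.

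**Figure D1:**
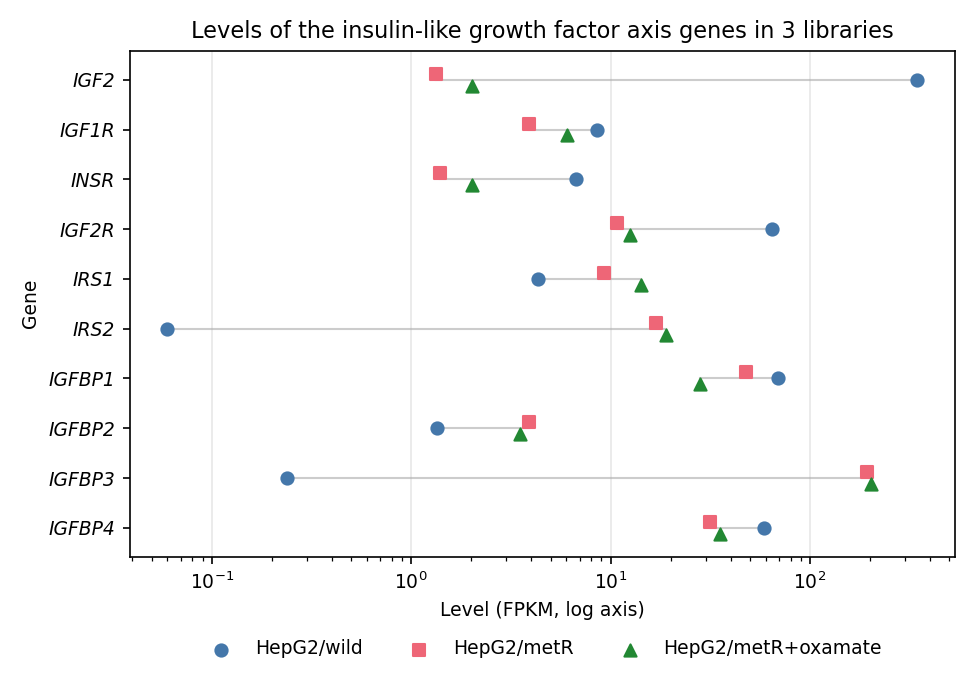
Level of each of the 10 genes in FPKM (log axis) in HepG2/wild (circles), HepG2/metR (squares) and HepG2/metR+oxamate (triangles), 1 library each, with a grey line over the range. The HepG2/metR and oxamate symbols are furthest apart for IGFBP1 (47.7 and 27.9 FPKM), and the HepG2/wild symbol stands far off for IGF2 (345 FPKM), IRS2 (0.0599) and IGFBP3 (0.238).

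IGF2, which encodes the fetal growth factor of the axis, was listed at 345 FPKM in HepG2/wild, 1.33 in HepG2/metR and 2.02 in HepG2/metR+oxamate. It was the highest of the 10 genes in HepG2/wild, and in HepG2/metR it lay with INSR (1.40 FPKM) at the bottom. The difference between HepG2/metR and HepG2/wild was -7.21 on the log2 scale, a 259-fold ratio of FPKM and the 74th largest difference in either direction of 12210 genes. In bulk RNA, fewer cells with the transcript and less of it per cell cannot be told apart, which applies to all genes here. Oxamate was accompanied by a difference of 0.37 on the log2 scale. This is not past 1.5-fold on that scale, although the plain ratio of FPKM was 1.52, at a level close to 2 FPKM.

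No other ligand was listed above 0. IGF1, INS and the read-through gene INS-IGF2, which overlaps IGF2, were listed at 0 in all 3 libraries, and how fragments were divided between IGF2 and INS-IGF2 is not given in the sources used here. H19, the imprinted noncoding RNA gene beside IGF2, was at 1.03 FPKM in HepG2/wild, 0.0483 in HepG2/metR and 0 with oxamate, too low to pass the filter. MRPL23, a gene for a mitochondrial ribosomal protein and the nearest protein-coding gene on the H19 side of IGF2, was at 64.6, 82.2 and 49.3 FPKM. It was not past 2-fold in HepG2/metR (0.34) and was past 1.5-fold lower with oxamate (-0.73). IGF2BP1, whose product binds IGF2 and other mRNAs and is typical of fetal and tumour cells, was at 64.1 FPKM in HepG2/wild, 16.9 in HepG2/metR and 23.6 with oxamate. Its difference of -1.86 in HepG2/metR was past 2-fold, and that of 0.46 with oxamate was not past 1.5-fold. The relatives IGF2BP2 (35.1, 33.6 and 29.7 FPKM) and IGF2BP3 (25.7, 33.0 and 28.0 FPKM) were not past the threshold in either comparison.

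The 3 receptors were all lower in HepG2/metR than in HepG2/wild in sign. Of them 2 were past 2-fold lower, against 17.6% of all genes kept. IGF2R, the clearance receptor, was at 64.1 FPKM in HepG2/wild, 10.8 in HepG2/metR and 12.4 with oxamate. Its difference of -2.47 in HepG2/metR is a 5.95-fold ratio of FPKM. INSR, the insulin receptor, was at 6.75, 1.40 and 2.01 FPKM in the same order, a difference of -1.69 and a 4.81-fold ratio. Both genes were lower in each resistant library than in HepG2/wild. IGF1R, the main growth-signalling receptor, was at 8.53 FPKM in HepG2/wild, 3.88 in HepG2/metR and 6.07 with oxamate. It missed 2-fold on the log2(FPKM + 1) scale at -0.97, and passed it at -1.12 when 0.1 replaced 1 as the pseudocount.

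The balance among the receptors also differed between the libraries. These ratios are taken within a library, so that scaling between libraries does not enter them. IGF1R stood at 1.26 times INSR in HepG2/wild, 2.77 times in HepG2/metR and 3.02 times with oxamate. IGF2R stood at 7.52 times IGF1R in HepG2/wild, 2.78 times in HepG2/metR and 2.05 times with oxamate. The transcripts of the clearance receptor thus outnumbered those of IGF1R per length in every library, by a smaller factor in the resistant cells. IGF1R and INSR together came to 15.3 FPKM in HepG2/wild, 5.28 in HepG2/metR and 8.08 with oxamate.

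With oxamate all 3 receptors were above HepG2/metR in sign, and none was past 1.5-fold. IGF1R came nearest, with a difference of 0.54, and INSR (0.33) and IGF2R (0.19) followed. The IGF1R difference passed 1.5-fold with a pseudocount of 0.1 (0.63) and after scaling the libraries to equal summed FPKM (0.68). That scaling moved the median of all genes kept to 0.17, and relative to this median the IGF1R difference was 0.52.

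Of the 2 adaptors, IRS2 was past 2-fold higher in HepG2/metR and IRS1 was not past it. IRS2, a docking protein that hepatocytes normally use beside IRS1 in insulin signalling, was at 0.0599 FPKM in HepG2/wild, 16.9 in HepG2/metR and 19.03 with oxamate. It was the lowest of the 10 genes in HepG2/wild and above 10 FPKM in both resistant libraries. The difference of 4.08 in HepG2/metR ranked 515th of 12210 in size. The ratio of FPKM was 282, which rests on a HepG2/wild level far under 1 FPKM. IRS1, the other docking protein, was at 4.34 FPKM in HepG2/wild, 9.32 in HepG2/metR and 14.3 with oxamate. It missed the threshold in both comparisons by a small margin, with differences of 0.95 and 0.57. IRS1 passed 2-fold in HepG2/metR with a pseudocount of 0.1 and with upper-quartile scaling (1.08 in both), and just passed it with equal summed FPKM. It passed 1.5-fold with oxamate with that pseudocount (0.61) and with equal summed FPKM (0.73, or 0.56 relative to the median of all genes). Upper-quartile scaling moved the median of all genes to 0.15 in HepG2/metR against HepG2/wild, relative to which the IRS1 difference was 0.93.

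Together the IRS transcripts came to 4.40 FPKM in HepG2/wild, 26.2 in HepG2/metR and 33.3 with oxamate. IRS1 made up nearly all of that sum in HepG2/wild and the smaller part of it in the resistant cells. The ratio of IRS1 to IRS2 was 72.5 in HepG2/wild, 0.552 in HepG2/metR and 0.750 with oxamate. The first of these depends on the low IRS2 level, and was 5.04 with 1 FPKM added to both values, while the side of 1 on which each library lay did not change.

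Of the 4 binding proteins, 2 were past 2-fold higher in HepG2/metR (IGFBP2 and IGFBP3), against 16.6% of all genes kept. The other 2 were not past it (IGFBP1 and IGFBP4). IGFBP3, the main carrier of growth factors in serum and also a secreted regulator of cell growth, was at 0.238 FPKM in HepG2/wild, 193 in HepG2/metR and 202 with oxamate. It went from second lowest of the 10 genes to the highest. The difference of 7.29 in HepG2/metR was the largest of the axis and the 67th of 12210 genes, with a ratio of FPKM of 809 that again rests on a low HepG2/wild level. Oxamate was accompanied by a difference of 0.07, below the median absolute difference of 0.21 over all genes kept. IGFALS, whose product joins IGFBP3 and growth factor in a serum complex, was at 0.480, 0 and 0.0358 FPKM and did not pass the filter.

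IGFBP1, a liver-secreted binding protein that insulin represses and nutrient stress induces, was at 69.2 FPKM in HepG2/wild, 47.7 in HepG2/metR and 27.9 with oxamate. It is the only one of the 10 genes that was past 1.5-fold with oxamate, at -0.75 on the log2 scale, a 1.71-fold ratio of FPKM and the 407th largest difference of 12210. The difference against HepG2/wild was -0.53 and was not past 2-fold. With equal summed FPKM in all libraries the oxamate difference was -0.58, short of the threshold, and relative to the shifted median of all genes it was -0.75. Under that scaling 9.70% of all genes were past 1.5-fold higher and 1.57% lower, in place of 4.30% and 3.82%, so the even balance of the oxamate comparison depends on how the libraries are scaled.

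IGFBP4, an inhibitory binding protein that PAPPA cleaves, was at 58.9 FPKM in HepG2/wild, 31.4 in HepG2/metR and 35.2 with oxamate, with differences of -0.88 and 0.16 that were not past the thresholds. IGFBP2, a fetal and tumour-associated binding protein, was at 1.35, 3.91 and 3.53 FPKM. Its difference of 1.06 was just past 2-fold in HepG2/metR. Its difference with oxamate was -0.11, and 0.02 with equal summed FPKM, so no direction is given for it.

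The makeup of the secreted binding protein transcripts changed more than their sum. IGFBP1 to IGFBP4 summed to 129.7 FPKM in HepG2/wild, 275.6 in HepG2/metR and 268.8 with oxamate, without IGFBP6 and IGFBP7, which are described below. IGFBP1 gave 53.4% of this sum in HepG2/wild, 17.3% in HepG2/metR and 10.4% with oxamate. IGFBP4 gave 45.4%, 11.4% and 13.1%. IGFBP3 gave 0.184%, 69.9% and 75.2%, the largest share in both resistant libraries. IGFBP1 and IGFBP4 were themselves not past 2-fold in HepG2/metR, so their shares fell further than their levels. IGFBP2 stayed between 1.04% and 1.42% in the 3 libraries. A pair of ratios was chosen after the values were seen. IGFBP3 to IGFBP1 was 0.00344 in HepG2/wild, 4.04 in HepG2/metR and 7.24 with oxamate, and IGF2 to the summed binding proteins was 2.66, 0.00483 and 0.00750. HepG2/wild was the only library with more IGF2 than binding protein transcript per length.

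**Figure D2:**
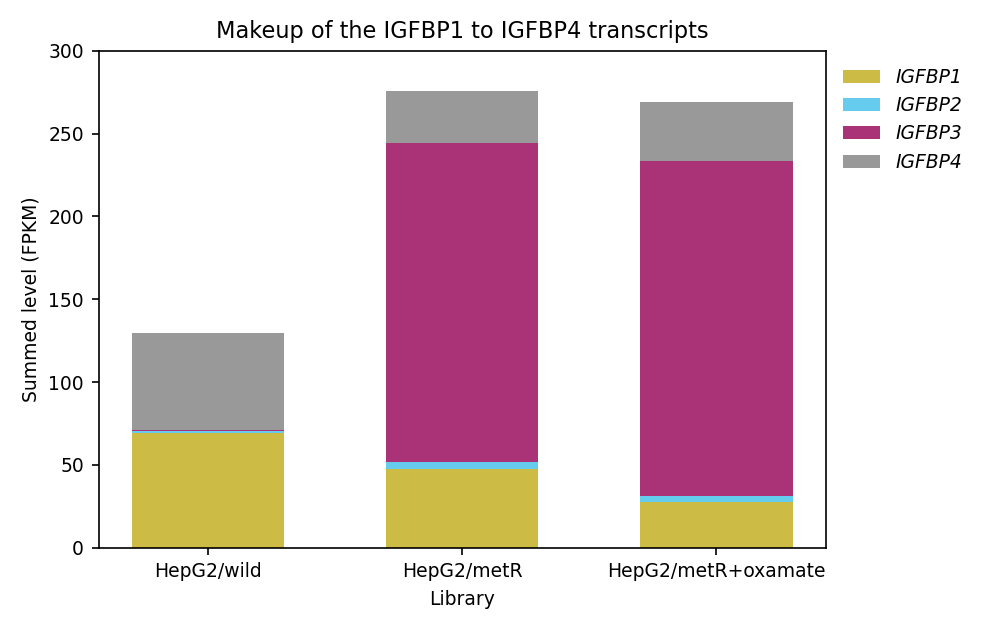
Stacked FPKM of IGFBP1, IGFBP2, IGFBP3 and IGFBP4 in the 3 libraries. The HepG2/wild bar (129.7 FPKM) is made of IGFBP1 and IGFBP4, and IGFBP3 fills most of the HepG2/metR (275.6 FPKM) and oxamate (268.8 FPKM) bars.

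The order of the 10 genes by FPKM in HepG2/wild was IGF2, IGFBP1, IGF2R, IGFBP4, IGF1R, INSR, IRS1, IGFBP2, IGFBP3 and IRS2. Without replicates, neighbours at close levels cannot be ordered: IGFBP1, IGF2R and IGFBP4 lay within 1.08 to 1.09 times of the next. In HepG2/metR the order was IGFBP3, IGFBP1, IGFBP4, IRS2, IGF2R, IRS1, IGFBP2, IGF1R, INSR and IGF2, in which IGFBP2 and IGF1R were 1.01 times and INSR and IGF2 1.05 times apart. With oxamate IGFBP4 stood above IGFBP1, by 1.26 times, and IRS1 above IGF2R, by 1.15 times. IGFBP3 was 4.04 times above the next gene in HepG2/metR and 5.74 times above it with oxamate.

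**Figure D3:**
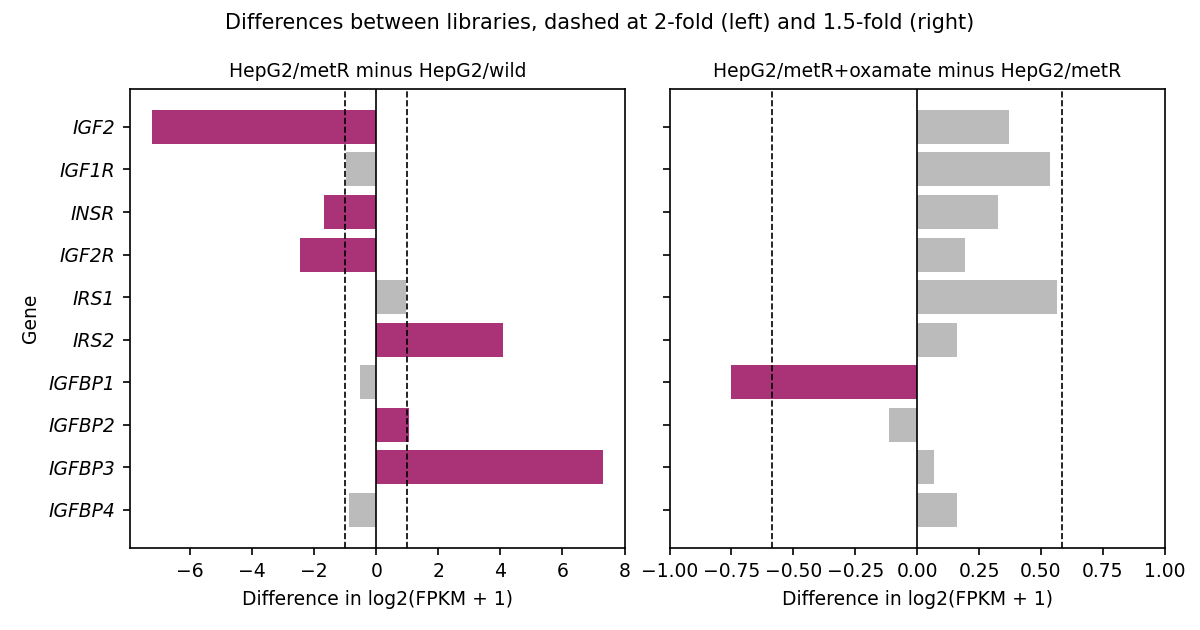
Difference in log2(FPKM + 1) for each of the 10 genes, HepG2/metR minus HepG2/wild (left, dashed lines at 2-fold) and HepG2/metR+oxamate minus HepG2/metR (right, dashed lines at 1.5-fold). Filled bars are past the threshold: 6 genes on the left, from IGF2 at -7.21 to IGFBP3 at 7.29, and IGFBP1 at -0.75 on the right, where the axis spans a smaller range.

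In the oxamate comparison 8 of the 10 genes lay above 0 and 2 below it, with a median of 0.18. Most of all genes kept also lay above 0, with a median of 0.02. Of the genes above 0, IGFBP3 (0.07), IGFBP4 (0.16), IRS2 (0.16) and IGF2R (0.19) were below the median absolute difference of all genes (0.21). The HepG2/metR library stands in both comparisons, and any error of it would enter them with opposite sign. The differences of the axis in the second comparison were small beside those of the first, as they were for all genes, whose median absolute difference was 0.65 in the first and 0.21 in the second.

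**Figure D4:**
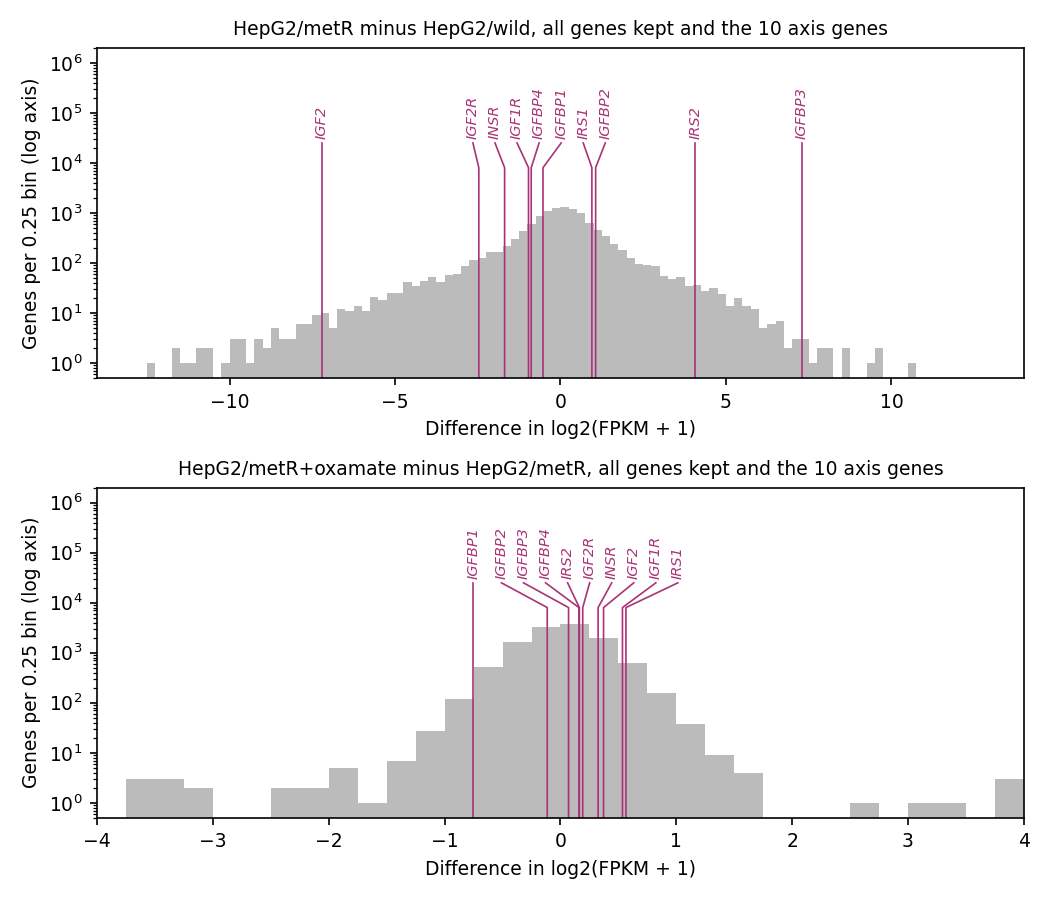
Number of genes (log axis) by difference in log2(FPKM + 1) for the 12210 genes kept, with the 10 axis genes as labelled lines, for HepG2/metR minus HepG2/wild (top) and oxamate (bottom), where genes beyond the ends of the axis are not drawn. IGF2 and IGFBP3 stand in the thin tails at the top, and 9 of the 10 genes stand in the central bulk at the bottom.

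The region upstream of each start site was read from RefSeq (build GRCh38.p14). The set of entries used here covered 8 of the 10 genes, IGFBP2 with 3 starts, and lacked IGF2 and IGFBP1. The files give no coordinates of their own and were made on hg19, so the coordinates are those of RefSeq. The 250 bases before the start are shown for IRS2 and IGFBP3, whose levels were furthest above HepG2/wild, and for IGF2R, the receptor furthest below it, written 5′ to 3′ on the strand of the gene and ending at the base before the start. IRS2 is on the minus strand (chr13:109786584-109786833), IGFBP3 on the minus strand (chr7:45921273-45921522) and IGF2R on the plus strand (chr6:159968832-159969081). Capitals mark TATATA in IGFBP3, part of a TATA box by its letters, TGTTTTG in IRS2, a form of the insulin response element that FOXO proteins bind, and CACGTG in IGF2R, the E-box that MYC and related proteins bind.
IRS2: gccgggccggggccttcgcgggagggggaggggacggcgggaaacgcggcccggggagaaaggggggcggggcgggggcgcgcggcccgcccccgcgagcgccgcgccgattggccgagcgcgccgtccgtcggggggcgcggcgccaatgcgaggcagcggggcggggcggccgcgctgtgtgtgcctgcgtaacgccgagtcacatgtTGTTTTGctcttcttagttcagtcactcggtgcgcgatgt
IGFBP3: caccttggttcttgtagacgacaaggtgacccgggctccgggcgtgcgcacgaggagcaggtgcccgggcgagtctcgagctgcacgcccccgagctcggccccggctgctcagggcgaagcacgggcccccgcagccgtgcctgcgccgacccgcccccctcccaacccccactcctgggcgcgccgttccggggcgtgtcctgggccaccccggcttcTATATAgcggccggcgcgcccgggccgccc
IGF2R: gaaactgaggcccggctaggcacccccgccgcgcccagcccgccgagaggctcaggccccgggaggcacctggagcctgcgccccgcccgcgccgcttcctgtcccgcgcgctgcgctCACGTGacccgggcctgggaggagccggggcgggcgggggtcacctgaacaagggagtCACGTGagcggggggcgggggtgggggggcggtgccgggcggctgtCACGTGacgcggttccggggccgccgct

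The motifs were chosen after the values were seen and were searched on both strands. TATATA stood 30 to 25 bases before the IGFBP3 start, and 3.73% of all 35116 RefSeq entries of this length hold it, or 1.99% of the 13336 entries of genes kept. TGTTTTG stood 40 to 34 bases before the IRS2 start (4.30% of all entries, 3.08% of entries of genes kept). CACGTG stood 3 times before the IGF2R start, at 132 to 127, 74 to 69 and 28 to 23 bases (at least 1 in 6.34% of all entries, 8.23% of entries of genes kept). None of the other entries of the axis held any of the 3 motifs in this window. IGF2 and IGFBP1 had no entry and were not searched. These are matches of letters and were not tested as binding sites.

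CpG dinucleotides were counted in the same windows of the 8 genes with an entry. The counts were 48 for IGF1R, 42 for IRS2, 39 for IRS1, 33 for IGF2R, 32 for IGFBP3, 28 for INSR and 24 for IGFBP4. The median over entries of genes kept was 20, with quartiles of 12 and 28. The IGFBP2 starts had 22, 7 and 4. IGF1R, IRS2, IRS1, IGF2R and IGFBP3 were thus above the upper quartile, INSR was at it, and IGFBP4 lay between it and the median. The genes that were nearly silent in HepG2/wild, IRS2 and IGFBP3, and the gene furthest down among the receptors, IGF2R, had counts of 32 to 42.

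Neighbouring protein-coding genes were examined after the values were seen. IGFBP1 and IGFBP3 are next to each other in RefSeq order, yet in HepG2/metR they differed by -0.53 and 7.29, and TNS3, a focal adhesion gene on the far side of IGFBP3, differed by -0.59 (16.8, 10.8 and 11.4 FPKM). IGFBP2 and IGFBP5 are also adjacent, and IGFBP5 was at 0.297, 0.0557 and 0.131 FPKM, under the filter. COL4A1, a basement membrane collagen gene and the next listed gene after IRS2 with 1 unlisted gene between them, was at 0.0386 FPKM in HepG2/wild, 52.7 in HepG2/metR and 38.9 with oxamate (differences of 5.69 and -0.43). Of 12 neighbours of the 6 genes past 2-fold in HepG2/metR, COL4A1 was the 1 that was past 2-fold in the same direction. Of all genes kept, 16.6% were past 2-fold higher and 17.6% lower, and not all of these neighbours passed the filter.

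The genes whose pattern over the 3 libraries was most like those of IGFBP3 and IGF2, the 2 members with the widest range, were taken by the distance between centred log2 values among genes with a mean of at least 10 FPKM. With 3 libraries this is a description. Closest to IGFBP3 was UCHL1, a deubiquitinase of neurons and some cancers, at a distance of 0.07 (0.0904 FPKM in HepG2/wild, 163 in HepG2/metR and 166 with oxamate). FXYD5 (0.26), GSTP1, a glutathione transferase (0.29), CD44, the hyaluronan receptor (0.34), and NNMT, nicotinamide N-methyltransferase (0.35), followed. Closest to IGF2 was SERPINF2, the liver-made inhibitor of plasmin, at 0.07 (195, 0.288 and 0.598 FPKM), followed by DUSP9, a MAP kinase phosphatase (0.17), DLK1, an imprinted fetal gene (0.19), PGC, a pepsinogen (0.20), and VIL1, villin of epithelial microvilli (0.24). All 5 of the first set were under 1 FPKM in HepG2/wild, and all 5 of the second were under 1 FPKM in both resistant libraries.

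A list of 63 further genes of the pathway was examined by role. All 63 were found, and 48 passed the filter. In HepG2/metR 7 of the 48 were past 2-fold higher (16.6% of all genes kept), 6 were lower (17.6%) and 35 were not past it, with a median of -0.01. With oxamate 2 were past 1.5-fold higher (4.30%), 2 were lower (3.82%) and 44 were not past it, with a median of 0.12. The share of the wider list past the thresholds was thus close to that of all genes. Some of the genes past 2-fold, among them SOCS3, STC1, GHR and PAPPA, were under 1 FPKM in HepG2/wild and passed the filter through the resistant libraries.

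Among the other binding proteins, IGFBP7, a secreted protein of low affinity for growth factors, was at 3.66 FPKM in HepG2/wild, 9.02 in HepG2/metR and 14.5 with oxamate, past the threshold in both comparisons (1.11 and 0.63). IGFBP6, which prefers IGF2 over IGF1, was at 17.0, 23.4 and 25.3 FPKM and was past neither (0.44 and 0.11). IGFBP7 was one of only 2 genes of the wider list that were past the threshold upward in both comparisons. The other was PAPPA, the protease that cleaves IGFBP4, at 0.00378, 1.11 and 3.47 FPKM (1.07 and 1.08). STC1, a stanniocalcin that inhibits PAPPA, was listed at 0 in HepG2/wild, 5.09 FPKM in HepG2/metR and 2.60 with oxamate. Its differences of 2.61 and -0.76 were past the threshold upward and then downward.

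Downstream of the receptors, most genes were not past the thresholds, which also holds for most of all genes kept. None of 9 adaptors kept (such as SHC1 and GRB2) and none of 6 genes of the mTOR arm was past the threshold in either comparison, although RPTOR, the defining subunit of mTOR complex 1, lay at the edge of it in HepG2/metR (16.5, 7.75 and 9.14 FPKM). None of 14 PI3-kinase and AKT genes was past 1.5-fold with oxamate. Of all genes kept, 4.30% were past 1.5-fold higher and 3.82% lower with oxamate. In HepG2/metR 16.6% of all genes kept were past 2-fold higher and 17.6% lower. In HepG2/metR 2 of the 14 were past 2-fold lower. PHLPP1, a phosphatase that switches AKT off, was at 6.47 FPKM in HepG2/wild, 1.70 in HepG2/metR and 1.78 with oxamate (-1.47). PDPK1, the kinase that activates AKT, was at 13.0, 5.85 and 6.69 FPKM (-1.03).

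AKT keeps the FOXO factors out of the nucleus, and these factors drive IGFBP1, IRS2 and INSR in liver. Of 3 FOXO genes kept, 2 were past 2-fold lower in HepG2/metR, against 17.6% of all genes kept. FOXO1 was at 6.23 FPKM in HepG2/wild, 0.492 in HepG2/metR and 0.588 with oxamate (-2.28). FOXO4 was at 6.55, 1.54 and 2.11 FPKM (-1.57). FOXO3 was at 3.86, 3.84 and 4.50 FPKM and was past neither threshold. Of the 3 genes named as FOXO targets, IRS2 was past 2-fold higher in HepG2/metR (4.08), INSR was past 2-fold lower (-1.69), and IGFBP1 was not past it (-0.53). The part of the FOXO factors in these levels was not tested.

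Of 5 negative regulators kept, 2 were higher and 1 was lower in HepG2/metR, against 16.6% and 17.6% of all genes kept, respectively. SOCS3, a suppressor of cytokine signalling that also binds INSR and IRS proteins, was at 0.388 FPKM in HepG2/wild, 17.5 in HepG2/metR and 12.0 with oxamate (3.73 and -0.50). SOCS2, which restrains the growth hormone receptor, was at 1.31, 4.80 and 4.26 FPKM (1.33 and -0.14). TRIB3, a stress-induced pseudokinase that binds AKT, was at 59.8, 28.5 and 16.4 FPKM. It was past the threshold downward in both comparisons (-1.04 and -0.76), the single gene of the wider list for which this holds. GHR, the growth hormone receptor that drives IGF1 in liver, was at 0.0298 FPKM in HepG2/wild, 1.26 in HepG2/metR and 1.73 with oxamate (1.14 in HepG2/metR), while IGF1 itself was listed at 0.

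**Figure D5:**
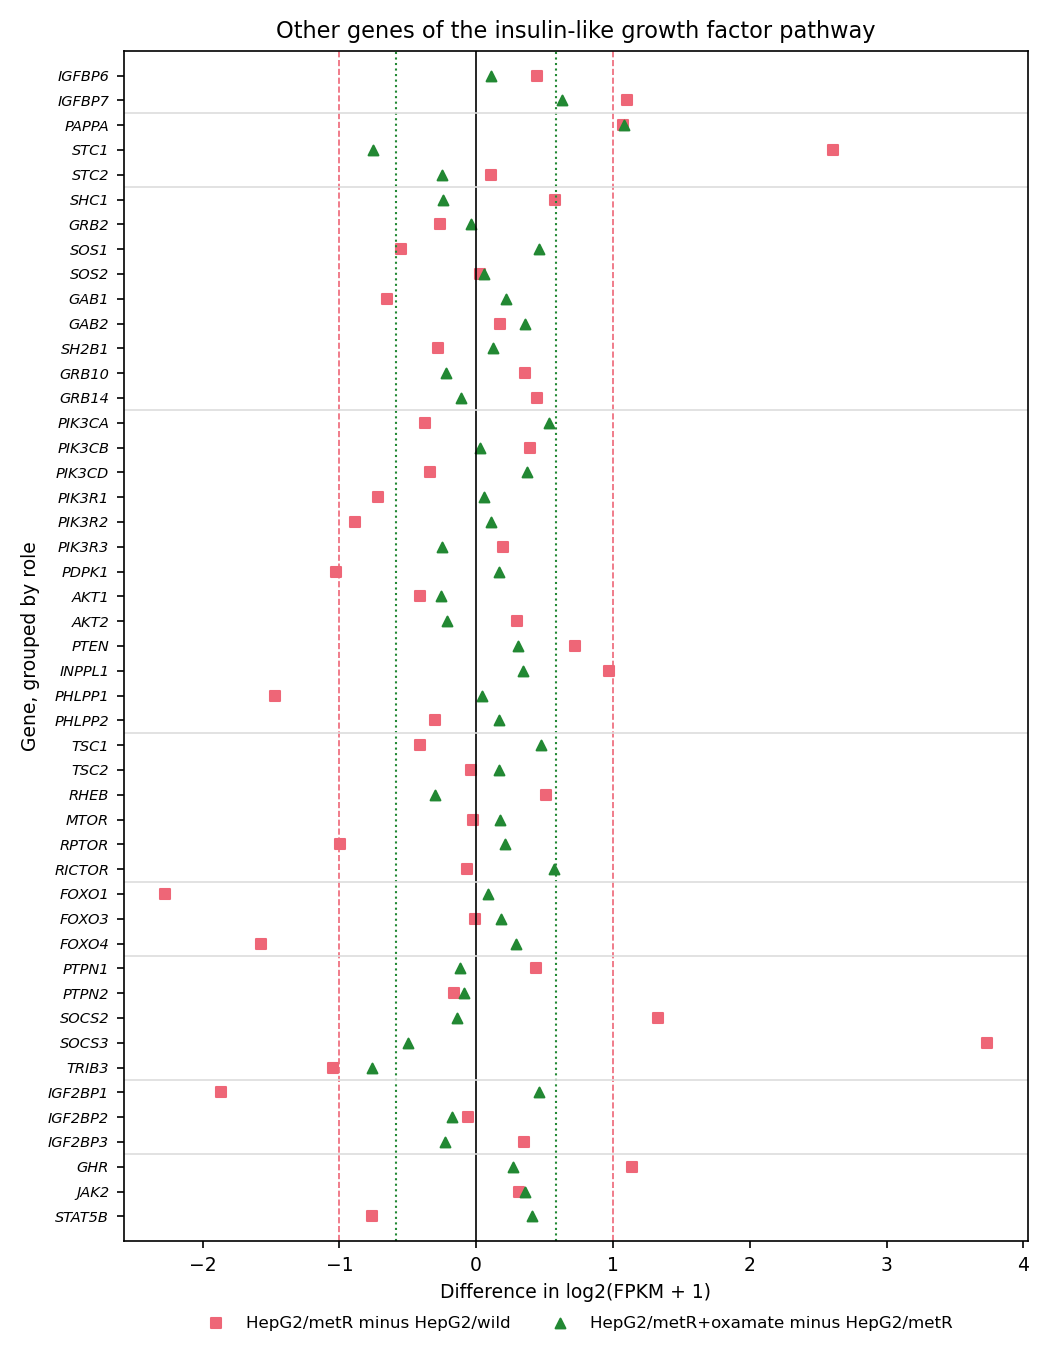
Difference in log2(FPKM + 1) for the kept genes of the wider list other than 1 that is not reported here, grouped by role, for HepG2/metR minus HepG2/wild (squares, dashed lines at 2-fold) and oxamate (triangles, dotted lines at 1.5-fold). SOCS3 (3.73) lies furthest to the right and FOXO1 (-2.28) lies furthest to the left, while adaptors and the mTOR arm lie within the dashed lines.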

How the data were processed

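Total RNA was extracted with Trizol and sequenced by the authors in 3 libraries, 1 for each condition. The deposited values are on a log2 scale and have the form log2(FPKM + 1), since undoing that transformation gave numbers of at most 6 significant digits for 100% of values above 1. The submitters' processing notes name STAR 2.5.1b, Cufflinks 2.2.1, FastQC 0.11.5 and hg19, without their order or role. The annotation and filters are not given in the sources used here. FPKM keeps no read totals, so the depth is unknown and no counting interval is given. The commonest ratio between libraries of the smallest values put HepG2/metR at 1.21 and HepG2/metR+oxamate at 1.24 times the depth of HepG2/wild.

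Differences of deposited values were used without further scaling, and FPKM was recovered by back-transformation. Genes with a mean of at least 1 FPKM (12210) formed the background. Thresholds of 2-fold and 1.5-fold follow the study's methods, which give 2-fold for an increase in HepG2/metR and 1.5-fold for a decrease with oxamate. Here each was used in both directions. The results of the study name only a 2-fold cut-off. No test was run across genes, since no condition has a replicate. Of the symbols, 28 read as spreadsheet dates and 2 were repeated, none of them a gene of the axis. The calculation was tested on simulated data.

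The genes and lists were chosen with earlier results of these data known. The genes named are the 10 genes of the axis, the ligand, IGFBP, IGF2BP and H19 genes listed above, every gene of the wider list with a mean of at least 1 FPKM past a threshold other than 1 not reported here, and the 5 genes most like each of the 2 members with the widest range (mean of at least 10 FPKM). Genes outside this rule (IGFALS, RPTOR, FOXO3, SHC1, GRB2 and the neighbouring genes) were chosen after their values were seen. The alternatives were a pseudocount of 0.1, no filter or a mean of at least 5 FPKM, 3 other scalings, and the fold threshold of the other comparison. Promoters come from RefSeq. Python 3.11, numpy 2.4.6, pandas 2.3.3 and matplotlib 3.10.9 were used.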

Additional observations from a re-analysis of the deposited data

How the results depend on the processing

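No paired analysis was possible because each condition has 1 library, and for the same reason none was left out. No difference of the 10 genes past a threshold changed its direction under any alternative run. In HepG2/metR against HepG2/wild 43 pairs of a gene and a setting kept their side of the threshold and 7 became past it, all in IGF1R, IRS1 or IGFBP4. With oxamate 43 pairs kept it, 4 became past it (IGF1R and IRS1), IGFBP1 lost it in 2, and the IGFBP2 difference, never past the threshold, changed sign in 1.

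Shares in brackets are those of all genes kept under the same setting. With a pseudocount of 0.1, 2 of the 10 genes and 4 of the wider list were past 1.5-fold higher with oxamate (8.34%). With equal summed FPKM in all libraries these counts were 2 and 7 (9.70%), and 0 of the 10 genes were lower (1.57%). With a mean of at least 5 FPKM, 3 genes of the wider list were higher (13.9%) and 3 lower (15.9%) in HepG2/metR. Under that filter 1 was higher (3.02%) and 1 lower (4.49%) with oxamate. These counts were smaller since fewer genes were kept. At 1.5-fold in HepG2/metR, 5 of the 10 genes and 11 of the wider list were lower (27.0%). At 2-fold with oxamate, 0 of the 10 genes were lower (0.524%), and 1 gene of the wider list was higher (0.541%) and 0 lower. With 1 FPKM added to both values, the HepG2/wild share of IGFBP2 was 1.76%, that of IGFBP3 was 0.926%, and the IRS1 to IRS2 ratio was 5.04, because these rest on levels near or under 1 FPKM. Apart from the additions named, the cause of these shifts was not tested. The unknown depth limits what can be said of genes under 1 FPKM, IRS2 and IGFBP3 in HepG2/wild among them.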
